A study of Mus musculus with 8 samples.

Results

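Cholesterol and fatty acid synthesis was described through 34 named genes in RNA from distal mouse colon: 5 genes that control the sterol response, 18 enzymes of cholesterol synthesis, the sterol carrier gene Stard4 and 10 enzymes that make, lengthen and desaturate fatty acids. The genes were chosen by name and pathway role, with earlier results of these data known. A symbol that occurred more than once was read from the record with the highest mean. All 34 were found among 52143 deposited genes, and all 34 were among the 13164 genes tested.

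Tissue came from 4 control and 4 Siglec-XII samples at baseline. Control mice carried Villin1-Cre-ERT, a tamoxifen-activated Cre recombinase under the Villin1 promoter, which is active in gut epithelium. Siglec-XII mice carried Villin1-Cre-ERT together with 1 floxed copy of human SIGLEC12 at ROSA26, so that Cre activity switches on the human sialic acid receptor-like protein Siglec-XII in epithelial cells, and the controls were littermates without that allele. Mice of both groups were females aged 8 weeks, were injected with tamoxifen for 5 days and were killed 7 days after the last injection, so tamoxifen and Cre are common to both groups. The design text speaks of 3 mice per condition while the labels list 4 samples per group. The Methods also describe 3 technical replicate libraries for each sample, and the sources do not say how these relate to the 4 labelled samples. The samples were each counted as 1 replicate, and P values measure only the spread between these samples, which may be technical. SIGLEC12 has 0 entries in the deposited table, and the labels were not checked against expression of the allele.

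Values were log2(TPM + 1), where TPM is the length-corrected share of a transcript in its library. TPM holds no read number, and the depth behind each value is unknown. Epithelial markers were high in every sample, with a summed TPM of 8 markers (among them Epcam, Krt8 and Vil1) of 7997 to 11325 in controls and 8752 to 11415 in Siglec-XII samples. Other markers differed between samples. The summed TPM of 7 smooth muscle markers was 643 to 1024 in controls and 309 to 663 in Siglec-XII samples, and the summed TPM of 7 squamous and sebaceous markers (among them Krt5, Krt10 and Krt14) was 9063 in control 1, 5225 in control 4, 2466 in Siglec-XII 2 and 310 to 777 in the other 5. The keratins carried this sum, and the sebaceous genes of the list did not follow it: Awat2 and Scd3 were lowest in control 1, and Mc5r was listed at 0 there and in Siglec-XII 1. Most genes were lower in Siglec-XII samples 3 and 4: the median deviation of all tested genes from their mean over the 8 samples was -0.16 and -0.30 there, against -0.04 to 0.15 in the other 6. In bulk tissue, fewer cells of a type and less RNA per cell cannot be told apart.

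Cells regulate cholesterol and unsaturated fatty acid supply through transcription factors made as precursors in the membrane of the endoplasmic reticulum. Srebf1 and Srebf2 encode these precursors, Scap encodes the escort that carries them to the Golgi for cleavage when sterols are scarce, and Insig1 and Insig2 encode proteins that hold the escort back when sterols are plentiful. The cleaved factors bind sterol regulatory elements, usually beside binding sites for NF-Y (CCAAT boxes) and Sp1 (GC boxes), in promoters of the synthesis enzymes. Srebf2 is known mainly for the cholesterol enzymes and Srebf1 for the fatty acid enzymes, and Insig1 is itself a target of the pathway.

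Promoters of 4 members are shown because Hmgcs1 and Fasn serve below as reference genes of the sterol and fatty acid branches, Mvd moved closely with Hmgcs1, and Insig1 moved with neither. The bases upstream of the RefSeq start on GRCm38.p6 are written 5′ to 3′ on the strand of the gene: chr13:119690101-119690350 on the plus strand for Hmgcs1, chr8:122443423-122443672 on the minus strand for Mvd, chr5:28071162-28071362 on the plus strand for Insig1 (stopping before the first exon in GENCODE M21) and chr11:120824548-120824797 on the minus strand for Fasn. Capitals mark letters that match a sterol regulatory element (TCACNCCAC), a CCAAT box (CCAAT), a GC box (GGGCGG) or an E box (CACGTG) on either strand, so that a CCAAT box on the opposite strand reads ATTGG.
Hmgcs1: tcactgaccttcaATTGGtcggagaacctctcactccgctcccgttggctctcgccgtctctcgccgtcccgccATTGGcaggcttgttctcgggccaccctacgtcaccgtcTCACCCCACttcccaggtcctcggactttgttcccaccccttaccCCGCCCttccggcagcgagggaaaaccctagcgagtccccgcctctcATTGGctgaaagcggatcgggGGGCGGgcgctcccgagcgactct
Mvd: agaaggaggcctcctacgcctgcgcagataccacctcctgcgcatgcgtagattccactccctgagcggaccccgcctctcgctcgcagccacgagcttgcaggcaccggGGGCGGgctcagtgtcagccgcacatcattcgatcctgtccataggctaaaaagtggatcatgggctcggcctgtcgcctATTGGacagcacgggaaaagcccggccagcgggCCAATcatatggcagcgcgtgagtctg
Insig1: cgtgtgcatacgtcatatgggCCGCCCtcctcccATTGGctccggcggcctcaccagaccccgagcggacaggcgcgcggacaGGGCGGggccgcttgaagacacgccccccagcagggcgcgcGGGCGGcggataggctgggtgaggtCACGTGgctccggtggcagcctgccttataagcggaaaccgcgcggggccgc
Fasn: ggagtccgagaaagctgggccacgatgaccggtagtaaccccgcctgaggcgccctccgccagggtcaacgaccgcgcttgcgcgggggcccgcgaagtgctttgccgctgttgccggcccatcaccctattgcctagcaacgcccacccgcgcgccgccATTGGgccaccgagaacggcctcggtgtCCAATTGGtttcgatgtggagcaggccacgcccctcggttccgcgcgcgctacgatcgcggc
In Hmgcs1, the TCACCCCAC match lay at positions -137 to -129 relative to the start. CCAAT matches lay on both sides of it and GC boxes lay between it and the start. In Fasn, 2 of the 3 CCAAT matches overlapped.

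RefSeq promoters were matched by symbol for 27 of the 34 members (not for Fads1, Fdft1, Fdps, Scd1, Scd2, Sqle and Stard4). In the 250 bases before the start, the letters TCACNCCAC were found in 1 of these 27 members, Hmgcs1 (3.70%), and in 1.22% of 27025 genes. CCAAT was found in 21 of 27 members (77.8%) and in 37.5% of all genes, and in 14 of 15 sterol enzymes but 3 of 7 fatty acid enzymes. GGGCGG was also found in 21 of 27 members, against 35.4% of all genes, in 14 of 15 sterol enzymes and in 2 of 7 fatty acid enzymes. CACGTG was found in 6 of 27 members (22.2%) and in 6.86% of all genes. These are matches of letters in a fixed window and not measured binding sites, and members were not chosen independently of the known biology of these promoters.

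Levels of the members spanned a wide range. By median TPM over the 8 samples, Scd2, a stearoyl-CoA desaturase, and Fads2, a desaturase of polyunsaturated fatty acids, were the most abundant members, each at 289. They were followed by Acly, which makes cytosolic acetyl-CoA from citrate, at 153 and by Msmo1, which removes methyl groups from sterol intermediates, at 133. Hmgcs1, which makes HMG-CoA, stood at 108 and Fdps, which makes farnesyl diphosphate, at 117. The least abundant were Acacb, the mitochondrial acetyl-CoA carboxylase, at 0.879, Fads1, another desaturase of polyunsaturated fatty acids, at 4.38 and Hsd17b7, a sterol ketone reductase, at 7.55.

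Between related genes the order of levels was the same in all 8 samples. Fads2 exceeded Fads1 by 5.61 ± 0.17 on the log2(TPM + 1) scale (SD, n = 8), with a range of 5.41 to 5.82, although Fads2 itself ranged from 7.29 to 8.48. Scd2 exceeded Scd1 by 3.16 ± 0.92, Acaca exceeded Acacb by 2.39 ± 0.42 and Elovl5 exceeded Elovl6, another fatty acid elongase, by 1.52 ± 0.27. Insig1 exceeded Insig2 by 1.31 ± 0.46, and Srebf2 exceeded Srebf1 by 0.68 ± 0.23. The difference between the paired desaturases Fads2 and Fads1 was therefore the steadiest of these, with groups at 5.60 (control) and 5.61 (Siglec-XII).

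Among the 5 control genes, Insig1 was the only member to differ between the groups at unadjusted P. It stood at 5.93, 5.32, 5.32 and 5.61 in controls 1 to 4 and at 5.80, 6.23, 6.26 and 5.92 in Siglec-XII samples 1 to 4. The groups overlapped, because control 1 lay above Siglec-XII 1 and Siglec-XII 4. The difference was 0.51 ± 0.17 (limma estimate and SE, log2 scale), with an adjusted P of 0.515 over 13164 genes in limma. This adjusted P ranged from 0.0999 to 1 over 17 alternative settings, and the difference ranged from 0.43 to 0.72.

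The other control genes did not follow Insig1. Srebf2 stood at 6.11, 6.57, 6.49 and 6.36 in controls and at 6.66, 6.52, 5.85 and 5.42 in Siglec-XII samples, so that Siglec-XII 1 was the highest of all 8 and Siglec-XII 4 the lowest (difference -0.27 ± 0.26). Srebf1 stood at 5.33, 5.63, 5.90 and 5.33 in controls and at 6.08, 5.90, 5.55 and 4.82 in Siglec-XII samples (0.04 ± 0.26). Both factors thus had their highest and lowest value within the Siglec-XII group. Scap ranged from 4.57 to 4.93 in controls and from 4.12 to 4.87 in Siglec-XII samples (-0.25 ± 0.18), and Insig2 from 4.18 to 4.72 and from 4.38 to 4.70 (0.04 ± 0.14). In Siglec-XII 3 and Siglec-XII 4, where Srebf2 was low, Insig1 exceeded Srebf2 by 0.41 and 0.50, whereas in the other 6 samples Insig1 lay below Srebf2 by 0.18 to 1.26.

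**Figure D1:**
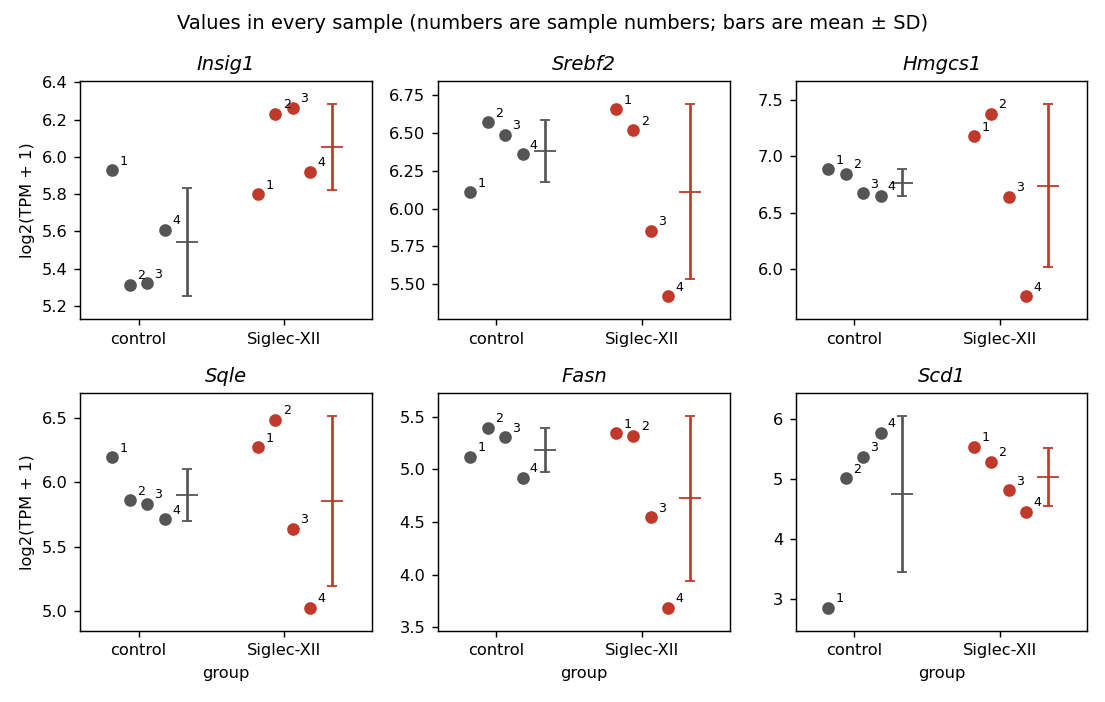
Values of 6 members in each sample, in log2(TPM + 1) on axes that do not start at 0; grey points are control samples, red points Siglec-XII samples, digits are sample numbers and bars show the mean ± SD (n = 4). Insig1 lies between 5.80 and 6.26 in Siglec-XII samples and between 5.32 and 5.93 in controls, Srebf2, Hmgcs1, Sqle and Fasn are lowest in Siglec-XII 4, and Scd1 is lowest in control 1 at 2.86.

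Enzymes of cholesterol synthesis differed widely among the Siglec-XII samples, and their group means were close. Hmgcs1 stood at 6.88, 6.85, 6.67 and 6.65 in controls and at 7.18, 7.38, 6.64 and 5.76 in Siglec-XII samples (-0.02 ± 0.31). Sqle, the squalene epoxidase, stood at 6.19, 5.86, 5.83 and 5.71 in controls and at 6.27, 6.49, 5.64 and 5.03 in Siglec-XII samples (-0.04 ± 0.29). In both genes Siglec-XII 1 and 2 lay above every control and Siglec-XII 3 and 4 below every control.

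Of the mevalonate steps, Fdps stood at 7.00, 6.72, 6.93 and 6.74 in controls and at 7.13, 7.26, 6.82 and 5.99 in Siglec-XII samples. Mvd, the mevalonate diphosphate decarboxylase, stood at 5.56, 5.25, 5.17 and 5.07 in controls and at 5.70, 5.73, 5.27 and 4.59 in Siglec-XII samples. Siglec-XII 4 was the lowest of the 8 samples in all 7 mevalonate genes. Mvk (mevalonate kinase) ranged over the 8 samples from 4.84 to 5.68, Pmvk (phosphomevalonate kinase) from 4.80 to 5.35, Idi1 (isopentenyl diphosphate isomerase) from 5.64 to 6.45 and Acat2 (acetoacetyl-CoA thiolase) from 4.30 to 5.27, with group differences of -0.05, -0.02, 0.02 and -0.09.

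At the step that makes squalene, Fdft1, the squalene synthase, stood at 6.10, 5.85, 5.71 and 5.71 in controls and at 6.26, 6.41, 5.96 and 5.02 in Siglec-XII samples (0.07 ± 0.27). Cyp51, the lanosterol demethylase, stood at 5.58, 5.37, 5.21 and 5.22 in controls and at 5.87, 5.86, 5.45 and 4.83 in Siglec-XII samples (0.16 ± 0.22). Siglec-XII 4 was again the lowest. Msmo1 stood at 7.28, 7.00, 6.75 and 6.83 in controls and at 7.30, 7.50, 7.13 and 6.67 in Siglec-XII samples, the highest difference among the 18 sterol enzymes at 0.19 ± 0.18 (adjusted P = 0.630 in limma). Hsd17b7 had the lowest, at -0.16 ± 0.26.

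Among the 34 members, Sc5d, the sterol desaturase, and Ebp, the sterol isomerase, varied least, with an SD of 0.12 and 0.14 over the 8 samples, against 0.48 for Hmgcs1 and 0.45 for Sqle. Other late enzymes varied more, with an SD of 0.39 for Hsd17b7 and 0.35 for Cyp51. Dhcr7, which makes cholesterol in the last step of its branch, lay between 6.57 and 6.74 in controls and between 6.16 and 6.88 in Siglec-XII samples. Tm7sf2, a sterol reductase, was lowest in control 1 (5.27), while Siglec-XII 4 stood at 5.35 and the other 6 samples lay between 5.70 and 5.81. Lss, which closes squalene epoxide to lanosterol, ranged from 2.85 to 3.99 and Nsdhl, a sterol dehydrogenase, from 4.14 to 5.26, both lowest in Siglec-XII 4. Stard4, which carries cholesterol between membranes, stood at 5.36, 5.84, 5.89 and 5.76 in controls and at 6.22, 6.07, 5.69 and 5.46 in Siglec-XII samples (0.15 ± 0.19).

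Enzymes of fatty acid synthesis were lower on average in Siglec-XII samples, a difference carried by samples 3 and 4, and none passed at unadjusted P. Fasn, the fatty acid synthase, stood at 5.12, 5.39, 5.30 and 4.92 in controls and at 5.34, 5.32, 4.55 and 3.69 in Siglec-XII samples (-0.46 ± 0.34, adjusted P = 0.555 in limma). Acly stood at 7.13, 7.38, 7.46 and 7.17 in controls and at 7.39, 7.36, 6.57 and 5.99 in Siglec-XII samples (-0.46 ± 0.29). Acaca, the cytosolic acetyl-CoA carboxylase, stood at 3.17, 3.48, 3.64 and 3.43 in controls and at 3.71, 3.54, 2.58 and 2.17 in Siglec-XII samples (-0.43 ± 0.33). In these 3 genes Siglec-XII 1 and 2 lay within or just above the control range, and Siglec-XII 3 and 4 lay below every control. Without Siglec-XII 3 and 4, the differences of Fasn, Acly and Acaca were 0.15, 0.09 and 0.20.

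Desaturases and elongases were more mixed. Elovl5 stood at 4.78, 4.89, 4.83 and 4.81 in controls and at 4.92, 4.72, 4.27 and 3.98 in Siglec-XII samples, the smallest P of the 10 fatty acid enzymes (-0.35 ± 0.19, adjusted P = 0.515 in limma). Scd2 stood at 7.91, 8.41, 8.49 and 7.72 in controls and at 8.83, 8.45, 7.75 and 6.77 in Siglec-XII samples. Fads2 ranged from 7.76 to 8.48 in controls and from 7.29 to 8.38 in Siglec-XII samples, and Fads1 from 2.33 to 2.74 and from 1.65 to 2.79. Siglec-XII 4 was the lowest sample in each of these 4 genes.

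Scd1 had another pattern, with 1 low control. It stood at 2.86, 5.01, 5.36 and 5.76 in controls and at 5.53, 5.29, 4.81 and 4.46 in Siglec-XII samples (0.27 ± 0.57). Acacb was also lowest in control 1, at 0.28 against 1.003 to 1.39 in the other controls and 0.46 to 1.002 in Siglec-XII samples. Elovl6 was lowest in Siglec-XII 4 (2.64) and next in control 1 (2.70). Outside the members, the sebaceous gene Scd3 stood at 0.23 and the elongase Elovl3 at 0.13 in control 1, against 1.87 to 3.37 and 1.67 to 3.58 in the other 7 samples. Awat2, a wax synthase of sebaceous glands, was likewise lowest in control 1, at 0.74 against 1.06 to 1.69. Control 1 was at the same time the highest sample for the squamous keratins Krt5 (10.90) and Krt14 (12.47). The part of squamous or sebaceous tissue in these values was not tested.

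**Figure D2:**
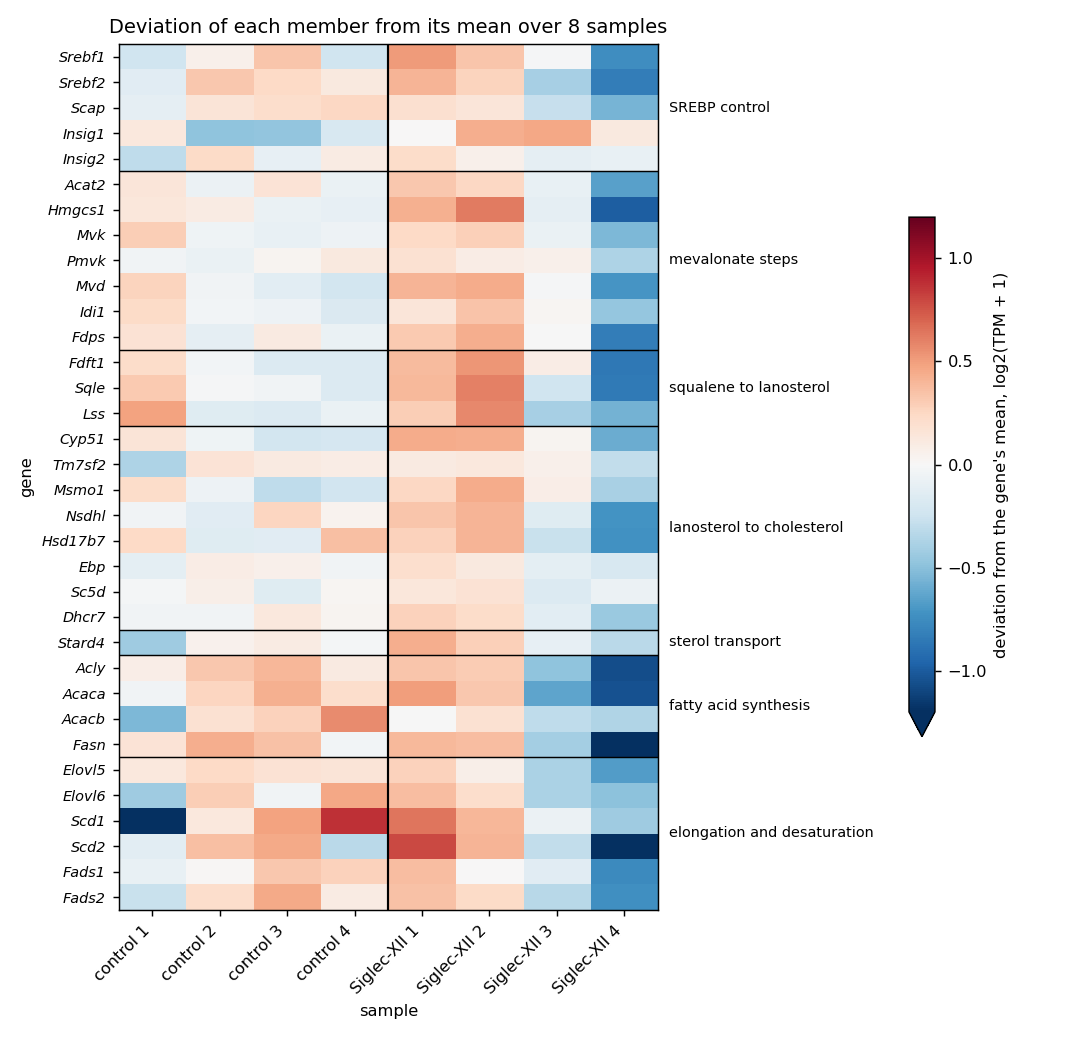
Deviation of each of the 34 members (rows, grouped by role) from its mean over the 8 samples (columns) in log2(TPM + 1), from blue (below) to red (above), with the colour scale ending at -1.2 and 1.2; the vertical line separates control from Siglec-XII samples. The column of Siglec-XII 4 is blue for nearly all members, the columns of Siglec-XII 1 and 2 are mostly red, and Insig1, at 6.26 in Siglec-XII 3 and 5.92 in Siglec-XII 4, lies above its mean of 5.80 in both of these columns.

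In the comparison of the groups, 0 of the 34 members passed at an adjusted P of at most 0.05 in limma, where 0.038% of the 13164 tested genes did. At unadjusted P of at most 0.05, 1 member (Insig1) was higher in Siglec-XII samples and 0 were lower, against 1.19% of all tested genes higher and 7.67% lower. Values of the groups did not overlap for 0 members, against 5.11% of all tested genes. With 34 members, 1 call lies near this background. No member differed by a fold of 2.

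Members lay higher in Siglec-XII samples than in controls for 13 genes and lower for 21, with a median difference of -0.05. Over all tested genes 2888 were higher and 10276 lower, with a median of -0.15. The sterol enzymes were divided 8 higher to 10 lower (median -0.02, range -0.16 to 0.19), while the fatty acid enzymes were 1 higher to 9 lower (median -0.25, range -0.46 to 0.27). Only 1 of the 18 sterol enzymes, Msmo1, differed by more than its own standard error, against 6 of the 10 fatty acid enzymes and 7098 of the 13164 tested genes.

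These signs depended on the scale between samples. The deposited values carry no adjustment between samples, and centring each sample on its median moved the median difference of all tested genes from -0.15 to 0.06, and quantile normalization to 0.02. After centring, 25 of 34 members lay higher in Siglec-XII samples and 6 passed at unadjusted P, all higher (Insig1, Insig2, Msmo1, Ebp, Sc5d and Stard4), where 8.64% of all tested genes did; after quantile normalization 24 lay higher and 1 passed, against 5.35% of all tested genes passing as higher. The 0 members at adjusted P held in each of the 17 alternative settings.

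**Figure D3:**
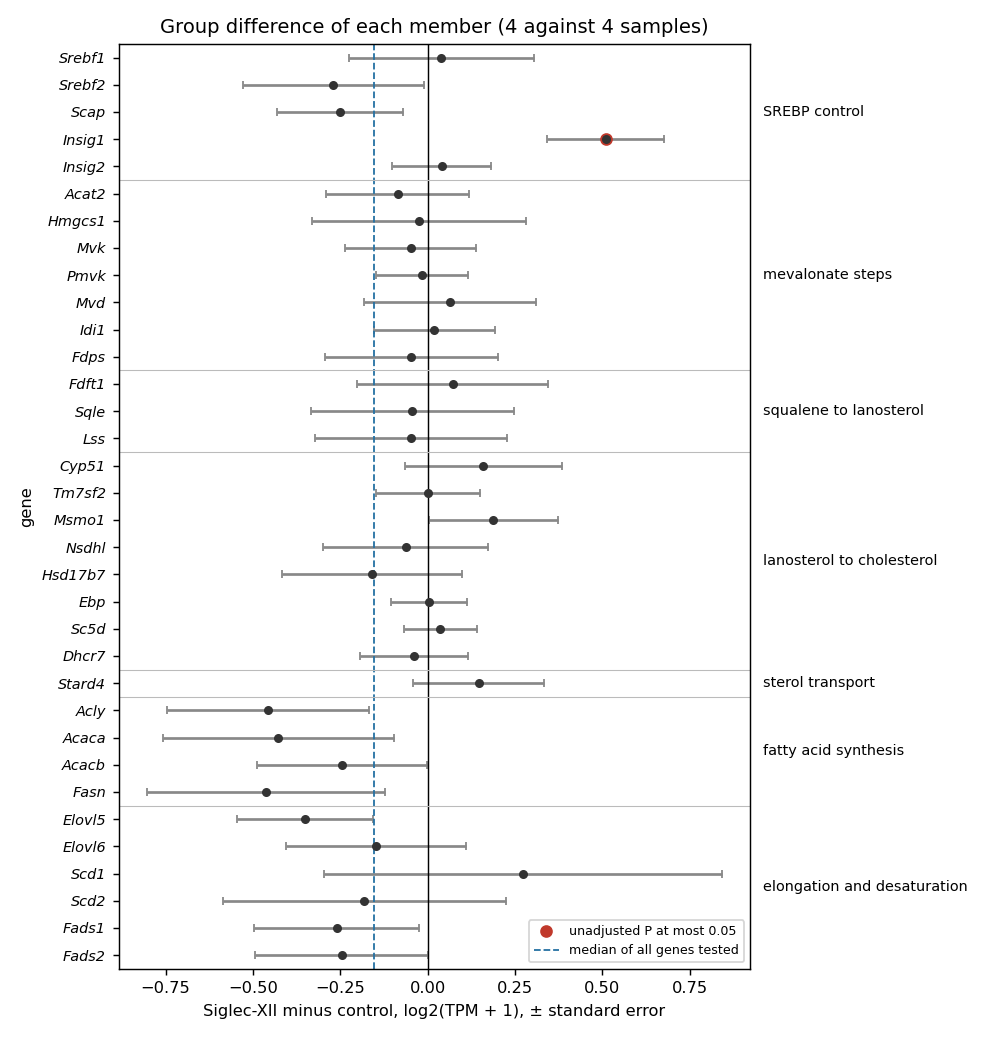
Difference of each member between Siglec-XII and control samples (4 against 4) in log2(TPM + 1), with limma standard errors as bars; the dashed line is the median of all tested genes at -0.15 and the red ring marks unadjusted P of at most 0.05. Insig1 stands apart at 0.51, the sterol enzymes lie from -0.16 to 0.19, and 9 of the 10 fatty acid enzymes lie below 0.

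Single Siglec-XII samples set much of the balance. Without Siglec-XII 4, 24 members lay higher and 4 passed at unadjusted P as higher (Insig1, Fdft1, Cyp51 and Msmo1), against 1.09% of all tested genes; without Siglec-XII 1 and without Siglec-XII 2, 5 and 6 lay higher. Without both Siglec-XII 3 and 4, 32 of 34 lay higher and 11 passed at unadjusted P, 9 of them sterol enzymes, while Insig1 did not. All 11 were higher, as were 1.18% of all tested genes at unadjusted P in that setting. Siglec-XII 3 and 4 held the lowest means of both enzyme branches. Leaving them out therefore raises the differences of the members by selection, and few Siglec-XII samples remain. Weighting samples by their spread gave 13 members at unadjusted P, 11 of them sterol enzymes, all higher, with a smallest adjusted P of 0.0999, where 3.28% of all tested genes were higher and 10.8% lower at unadjusted P. In that weighted fit Hmgcs1 differed by 0.55 and Sqle by 0.56.

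The mean of the 18 sterol enzymes in each sample shows the same. As deviation from the mean of 8 samples it was 0.13, -0.03, -0.04 and -0.05 in controls 1 to 4 and 0.28, 0.36, -0.08 and -0.57 in Siglec-XII samples 1 to 4. The 10 fatty acid enzymes stood at -0.32, 0.25, 0.33 and 0.24 in controls and at 0.40, 0.25, -0.34 and -0.81 in Siglec-XII samples. The branches parted in control 1, which was the highest control for the sterol enzymes and the lowest for the fatty acid enzymes. Low Scd1 carried much of the latter, and without Scd1 the mean of the other 9 stood at -0.13 in control 1. After centring each sample on its median, the sterol mean was 0.15, -0.22, -0.13 and -0.22 in controls and 0.17, 0.31, 0.15 and -0.20 in Siglec-XII samples. Siglec-XII 3 then stood level with control 1, near Siglec-XII 1 and below Siglec-XII 2, and Siglec-XII 4 stood with controls 2 to 4.

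**Figure D4:**
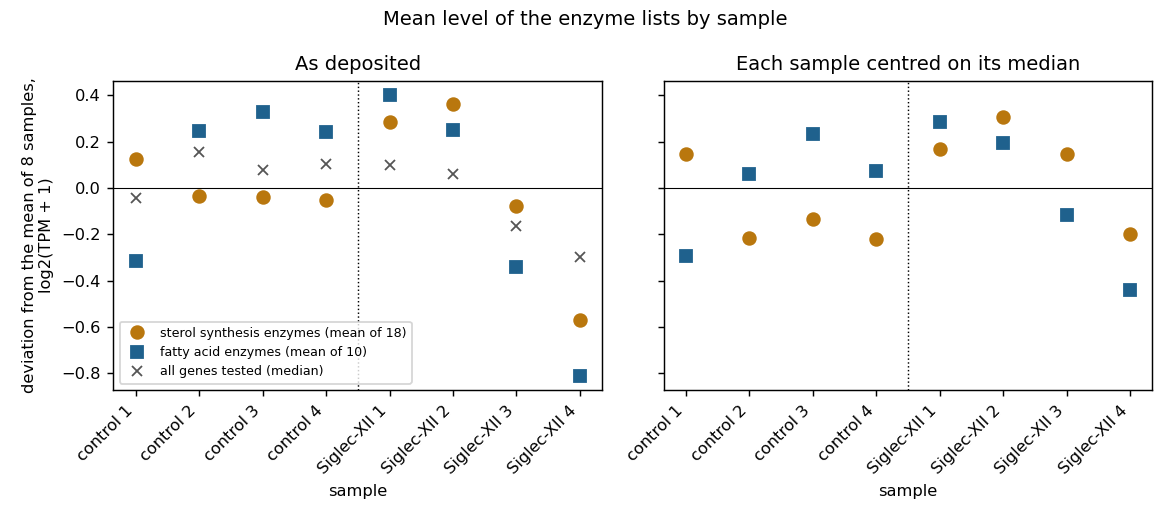
Mean of the 18 sterol enzymes (circles), mean of the 10 fatty acid enzymes (squares) and median of all tested genes (crosses) in each sample, as deviation from the mean of the 8 samples in log2(TPM + 1), as deposited (left) and after centring each sample on its median (right). On the left all 3 are lowest in Siglec-XII 4 (-0.57, -0.81 and -0.30), and on the right the sterol mean of Siglec-XII 3 moves from -0.08 to 0.15.

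Extremes fell in the same few samples. Siglec-XII 4 was the lowest of the 8 samples for 16 of 18 sterol enzymes and 8 of 10 fatty acid enzymes, and for 51.9% of all tested genes. Siglec-XII 1 or Siglec-XII 2 was the highest for 16 of 18 sterol enzymes and 4 of 10 fatty acid enzymes, and for 23.7% of all tested genes. The median SD over the 8 samples was 0.33 for sterol enzymes and 0.46 for fatty acid enzymes, against 0.26 for all tested genes.

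Co-variation within the branches was strong across the 8 samples. The median Pearson r was 0.815 over the 153 pairs of sterol enzymes and 0.831 over the 45 pairs of fatty acid enzymes, against 0.653 over the 180 pairs between the branches, 0.496 over the 10 pairs of control genes and 0.322 over all pairs of tested genes. Pairs share samples, and these medians are a description. After centring each sample on its median, they were 0.683 for sterol, 0.594 for fatty acid, 0.137 between the branches, 0.033 for the control genes and 0.038 for all genes. About the mean of each group separately, the medians were 0.841 for sterol enzymes and 0.819 for fatty acid enzymes. Without Siglec-XII 3 and 4 they were 0.611 and 0.538, against 0.143 for all genes.

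Hmgcs1, the reference of the sterol branch, moved most closely with Sqle (r = 0.973, exact permutation P = 2.48e-05, adjusted P = 0.00161; rho = 1, exact permutation P = 4.96e-05, adjusted P = 0.00322, n = 8). Adjustment was over 65 relations, those of Hmgcs1 and Fasn with the other members. The 8 samples thus stood in the same order for both genes. Next came Fdft1 (r = 0.970, rho = 0.833), Fdps (r = 0.960, rho = 0.833) and Mvd (r = 0.958, rho = 0.857), each with an adjusted exact permutation P of at most 0.0117 by r and of 0.0825 by rho. The median r of Hmgcs1 with the 17 other sterol enzymes was 0.905, and 9 of 17 reached 0.9, as did 0.562% of the other tested genes. The loosest by r were Tm7sf2 (r = 0.506, rho = 0.452) and Sc5d (r = 0.638, rho = 0.786). By rho the loosest was Pmvk (rho = 0.429, r = 0.813).

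Fasn moved most closely with Acly (r = 0.985, exact permutation P = 0.00104, adjusted P = 0.0113; rho = 0.810, exact permutation P = 0.0218, adjusted P = 0.0825, n = 8). Srebf2 followed at r = 0.952 (adjusted exact permutation P = 0.0152) and rho = 0.952 (adjusted exact permutation P = 0.0371), together with Elovl5 (r = 0.952), Acaca (r = 0.945) and Scd2 (r = 0.937). Scd1 (r = 0.221) and Acacb (r = 0.464) stood apart. Of the 9 other fatty acid enzymes 4 reached r of 0.9 with Fasn, but so did 13.8% of the other tested genes. Srebf1, at r = 0.830, was not closer to Fasn than Srebf2, and the difference between these r values was not tested.

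Insig1 moved with neither reference gene, at r = 0.104 with Hmgcs1 (rho = 0.024) and r = -0.359 with Fasn (rho = -0.476), with exact permutation P of 0.824 and 0.400 by r and of 0.977 and 0.243 by rho. Across all 65 relations, 37 passed at an adjusted exact permutation P of at most 0.05 by r and 2 by rho. How many other tested genes would pass the same test was not computed. The median r over all pairs of tested genes was 0.322. Of the other tested genes, 13.8% reached r of 0.9 with Fasn and 0.562% with Hmgcs1. The 37 are therefore not shown to be particular to the members. The relations rested on few samples. When the 2 samples farthest from the median were left out (Siglec-XII 4 and 2 for Hmgcs1, Siglec-XII 4 and 3 for Fasn), the median r with Hmgcs1 fell to 0.716 over the 17 sterol enzymes and the median r with Fasn to 0.370 over the 9 fatty acid enzymes. Without these samples r was 0.8998 for Sqle with Hmgcs1, 0.840 for Acly with Fasn and 0.674 for Srebf2 with Fasn. Without Siglec-XII 4 alone, 1 of the 65 relations passed by r.

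**Figure D5:**
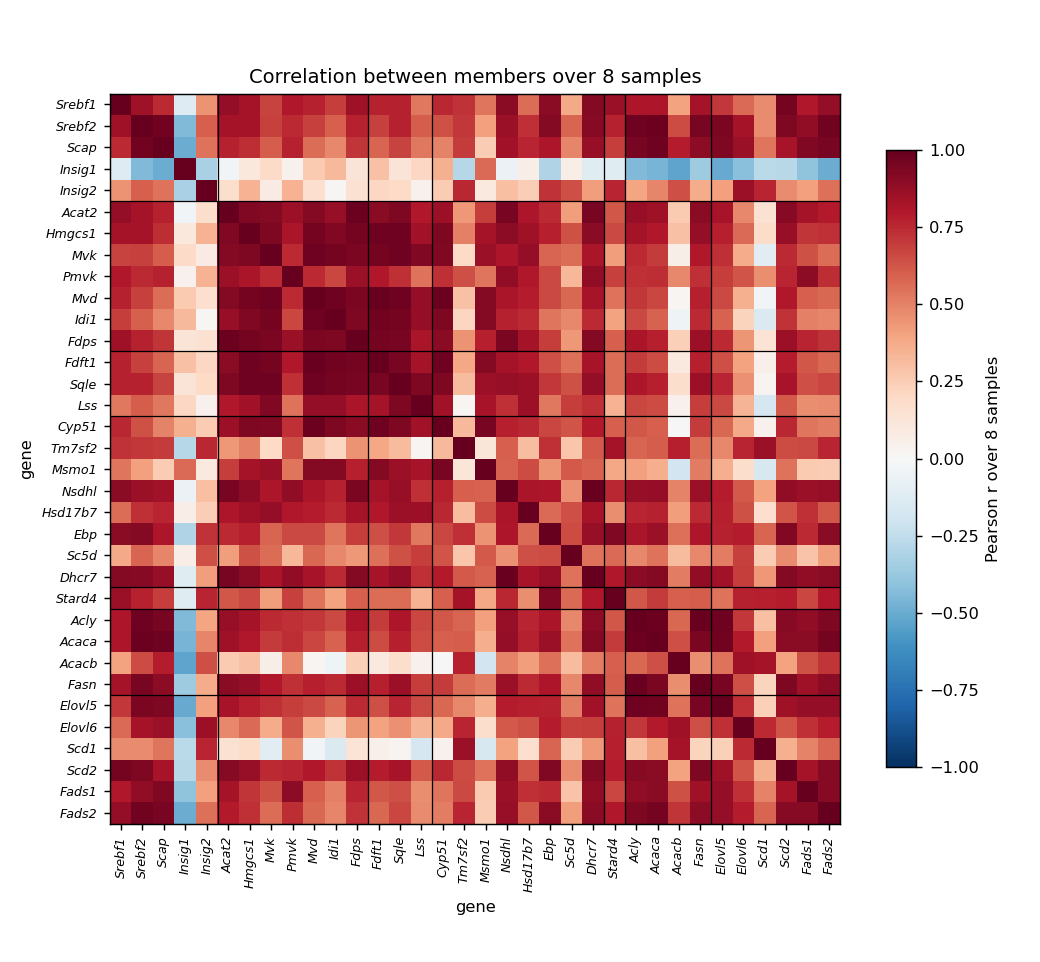
Pearson r between each pair of the 34 members over the 8 samples, from blue (-1) to red (1), with black lines between roles. Sterol enzymes and fatty acid enzymes form red blocks with median r of 0.815 and 0.831, and the row of Insig1 is pale or blue throughout except toward Msmo1.

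Outside the members and the lists, the tested genes most like Hmgcs1 over the 8 samples included Fgfbp1 (r = 0.980), Rala (r = 0.973), Aacs (r = 0.968), which makes acetoacetyl-CoA for lipid synthesis in the cytosol, and Ndufv1 (r = 0.960). Those most like Fasn were Lta4h and Phf6 (both r = 0.992) and Ndufa9, Hspa9 and Rtcb (each r = 0.989). These values are a description over 8 samples that share the low level of Siglec-XII 4.

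Other genes around the pathway were read from lists chosen by function. Of 9 genes for processing and turnover of the precursors (among them the proteases Mbtps1 and Mbtps2), 0 passed at unadjusted P, with a median difference of -0.11. Of 9 genes of the isoprenoid branches, which use farnesyl diphosphate for prenylation, dolichol and ubiquinone, 0 passed, with a median of -0.11. Both medians lay near the -0.15 of all tested genes.

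Of 13 tested genes of sterol efflux, storage and LXR response, 1 passed at unadjusted P, as higher. Of all tested genes, 1.19% passed as higher and 7.67% as lower, and 1 call among 13 lies near this background. Lipa, the lysosomal acid lipase that frees cholesterol from its esters, stood at 3.93, 4.11, 4.27 and 4.12 in controls and at 4.49, 4.47, 4.29 and 4.69 in Siglec-XII samples. Every Siglec-XII sample lay above every control, where groups did not overlap for 5.11% of all tested genes. The difference of Lipa was 0.37 ± 0.12 (adjusted P = 0.515 in limma). Abcg5 and Abcg8, the paired sterol exporters, differed by 0.24 ± 0.16 and 0.21 ± 0.17 and did not pass. Npc1 was lower, at -0.29 ± 0.24, and did not pass either. Of the 13 genes 6 were higher and 7 lower, with a median difference of -0.02.

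Of 18 tested genes of acyl-CoA supply and further elongation, 1 was higher and 2 were lower at unadjusted P. Of all tested genes, 1.19% were higher and 7.67% lower. With 18 genes, these few calls lie near this background. Acsl3, an acyl-CoA synthetase of lipid droplets, stood at 6.60, 7.08, 6.95 and 7.25 in controls and at 7.28, 7.32, 7.20 and 7.54 in Siglec-XII samples (0.36 ± 0.14). Mlxipl, which encodes the carbohydrate-responsive factor ChREBP, stood at 2.04, 2.62, 2.62 and 2.44 in controls and between 1.47 and 2.18 in Siglec-XII samples, of which only Siglec-XII 2 reached the control range (-0.58 ± 0.20). Acsl1, another acyl-CoA synthetase, was lower by a difference of -0.61 ± 0.24, with controls 1 and 4 the highest at 4.64 and 4.50. The adjusted P in limma was 0.515 for each of the 3, and groups overlapped in each.

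Smooth muscle markers were lower in Siglec-XII samples in 7 of 7 genes, 4 of them at unadjusted P, with a median difference of -0.70 and the lowest summed TPM in Siglec-XII 4. Of all 13164 tested genes, 10276 were lower, and 7.67% were lower at unadjusted P, with a median difference of -0.15. Epithelial markers had a median difference of -0.05 with 0 of 8 at unadjusted P, and the 6 adipocyte markers tested (of 8) had a median of 0.00, with a summed TPM of 12.8 to 59.3 in controls and 16.0 to 36.7 in Siglec-XII samples. The 6 leukocyte markers were too low to test, at a summed TPM of 2.28 to 8.01 in controls and 1.41 to 2.14 in Siglec-XII samples. The part of other cell types in the values of the members was not tested. Without control 1, control 4 and Siglec-XII 2, the 3 samples with the highest squamous keratin levels, 4 of 34 members lay higher and Insig1 was the 1 member at unadjusted P. In that setting the median difference of all tested genes was -0.24, with 0.714% higher and 5.19% lower at unadjusted P. Siglec-XII 3 and 4, where most genes were lower, then made up most of their group.

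Transcripts of some members share stretches of sequence, on either strand, with transcripts of other genes. Of the 31-base windows in the transcripts of each member, 43.7% of Acat2 also occurred in another gene (Acat3), 33.5% of Acaca (mostly Gm5182), 31.9% of Fdft1 (most often Ctsb), 27.9% of Fdps (mostly Gm43738) and 27.1% of Idi1 (mostly Gm13502). The share was 8.18% for Scd1 and 6.81% for Scd2, mostly with Scd3, and 13.1% for Hmgcs1. Values of the 5 genes above 20% are less certain, because the authors' quantification could split their reads.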

How the data were processed

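Distal colon RNA was measured in 4 controls and 4 Siglec-XII samples. The authors quantified reads with kallisto (version 0.45.0 in the submitters' processing notes) and deposited 1 log2(TPM + 1) value per gene and sample, without adjustment between samples. The notes name GRCm38, while the text of the Methods names another kallisto version and a human reference. The deposited gene identifiers are of mouse, and 98.5% are in GENCODE M21. TPM sums to 1000000 per sample, so depth is unknown and precision is set by sample number.

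A gene was tested where 4 or more samples reached a TPM of 1 (13164 genes). Linear models with a mean-variance trend were fitted in limma 3.58.1 (R 4.3.3), and P values were adjusted by the Benjamini-Hochberg method. Correlations were tested two-sided over all 40320 orders of the samples (Python 3.11.15, numpy 2.4.6, scipy 1.17.1), and adjusted over 65 relations. The fit and the correlations were tested on simulated data. The added 1 shrinks the differences of genes with low TPM. Promoter motifs were searched in RefSeq sequence of GRCm38.p6, and transcript windows of 31 bases were compared in GENCODE M21.

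Groups came from the labels, which give no batch or date. No sample repeated another (highest r between samples 0.987). Members, lists, tests and alternatives were chosen with earlier results of these data known. Named genes were the members, up to 3 genes of each other list by smallest P, and the 5 genes most like Hmgcs1 and the 5 most like Fasn. Scd3, Elovl3, Abcg8, Mbtps1, Mbtps2 and markers given only as examples were named for their function, and Scd3, Elovl3, Abcg8, Awat2 and Mc5r after their values were seen. Some results are not reported here. Alternatives were no filter, a TPM of at least 5, a pseudocount of 0.1, quantile normalization, median centring, array weights, the sample number as a block and samples left out.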

Additional observations from a re-analysis of the deposited data

Results flagged for a closer look

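Each member was examined in both groups (68 sets of 4 values). In 4 sets a single value stood apart by Dixon's criterion, the gap to its nearest neighbour as a share of the whole range, where chance gives about 3.4. In controls, control 1 stood apart for Mvk (gap of 0.912 of the range), which was high at 5.68 against 5.30 to 5.33, for Lss (0.879), high at 3.90 against 3.26 to 3.34, and for Tm7sf2 (0.861), low at 5.27 against 5.73 to 5.81. In the Siglec-XII group, Siglec-XII 4 stood apart for Tm7sf2 (0.858), low at 5.35 against 5.70 to 5.76.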

How the results depend on the processing

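The 0 members at adjusted P, the 1 member (Insig1) at unadjusted P and the division of signs held without a filter, with a TPM of at least 5, with a pseudocount of 0.1 and with the replicate block. The block gave 0 members at adjusted P, 1 at unadjusted P and 13 higher. Same-numbered samples correlated at -0.20 to 0.10 in their deviations, and 0 samples correlated best with their own number. No pairing by number showed in these values, though so few samples cannot exclude one.

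Members higher in Siglec-XII samples numbered 24 after quantile normalization, 25 after centring on the median, 27 with array weights, 32 without Siglec-XII 3 and 4, 4 without control 1, control 4 and Siglec-XII 2 (chosen after seeing the data), and 5 to 24 leaving out 1 sample. Members at unadjusted P numbered 6 with median centring, 13 with array weights, 11 without Siglec-XII 3 and 4, and 1 to 4 leaving out 1 sample. The sterol median was 0.33 with array weights and 0.30 without Siglec-XII 3 and 4.

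Some members that were lower turned higher (counted where the original difference exceeded its standard error or the new one passed at unadjusted P). With array weights these were Srebf2 (0.0402), Hmgcs1 (0.55), Mvk (0.28), Fdps (0.39), Sqle (0.56), Lss (0.55), Nsdhl (0.31), Acaca (0.00761) and Fasn (0.0722). Without Siglec-XII 3 and 4 they were Srebf2 (0.20), Scap (0.0437), Hmgcs1 (0.51), Fdps (0.35), Sqle (0.48), Nsdhl (0.34), Dhcr7 (0.23), Acly (0.0873), Acaca (0.20), Fasn (0.15) and Fads1 (0.0613).

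The median r of fatty acid enzyme pairs was 0.594 with median centring, 0.538 without Siglec-XII 3 and 4 and 0.665 (without Siglec-XII 4) to 0.866 leaving out 1 sample. That of sterol pairs was 0.611 without Siglec-XII 3 and 4. Relations at adjusted P by r numbered 11 with median centring, 11 with quantile normalization, 7 about group means, 0 without Siglec-XII 3 and 4, and 1 to 42 leaving out 1 sample (1 without Siglec-XII 4, 14 without Siglec-XII 3, 24 without Siglec-XII 2). About group means, the median r of pairs was 0.841 for sterol and 0.819 for fatty acid enzymes, against 0.815 and 0.831 as deposited. With 6 samples the smallest exact P is larger. The cause of the other changes was not tested.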
